A study of Mus musculus with 4 samples.

Results

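The genes described here are the collagens other than the type IV chains of basement membranes: every gene whose symbol reads Col, a number, a and a number. Of 20672 genes in the count tables of the developing mouse kidney, 44 had such a symbol, 6 of them type IV chains, which left 38 genes. They fell into 11 fibril-forming chains, 9 fibril-associated chains, 7 beaded-filament chains, 4 transmembrane chains, 3 chains of short-chain networks, 2 multiplexins, the anchoring fibril chain Col7a1 and the unclassed Col26a1. Their transcripts were counted in single cells of 4 kidney preparations. Kidneys of ICR mice were taken at embryonic day 15.5 (E15.5) and on the day of birth (P0), and kidneys of C57BL/6 mice at E17.5. In the fourth preparation, E12.5 kidneys of C57BL/6N mice had been grafted into the fat of the epididymis of a host for 12 days (the transplant). All donors were labelled wild type. The label of the graft gives the host strain as C57BL/6N, whereas the design text speaks of NOD immunodeficient hosts, and which is right was not settled here. Each group is 1 library, and the number of animals behind it was not given in the sources used here. Age, strain and preparation differ together between the groups and cannot be told apart, and no test over samples was possible. The P0 library, labelled wild type, held 8181 UMIs of a tdTomato reporter, and the other 3 libraries held 0.

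Collagens are built of 3 alpha chains wound into a triple helix. Types I, III and V assemble into the fibrils that give a tissue its tensile strength, fibril-associated chains coat those fibrils, type VI forms beaded filaments around cells, and the multiplexins XV and XVIII sit at the border between basement membrane and interstitium. In the embryonic kidney the interstitial stroma, which surrounds the nephrons and patterns the cortex and medulla, is the usual source of fibrillar collagen, and the same genes mark the myofibroblasts of renal fibrosis.

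The libraries held 4158 to 10810 barcodes and 42430540 to 99068204 UMIs (unique molecular identifiers, each standing for 1 captured RNA molecule). After cells with under 500 genes, cells with over 20% mitochondrial UMIs and called doublets were left out, 3463 cells of the E15.5 library remained, with 4396 of E17.5, 7568 of P0 and 6268 of the transplant (the order in which values of the libraries are given from here on), at a median of 22585, 7198, 9886 and 6277 UMIs. Pairs of libraries shared 27 to 108 barcodes, at most 1.41% of the smaller library. Cells were assigned to classes by lists of marker genes that held no collagen, and each class is called by the type its markers stand for, as in stroma-like. Each cell was first thinned to 2000 UMIs, and 92, 181, 398 and 1247 shallower cells (19.9% of the transplant) were left out of the classes. The gate placed 68.4% to 77.0% of the cells in a class. Stroma-like cells numbered 1037, 596, 812 and 719, which was 29.9%, 13.6%, 10.7% and 11.5% of the cells. Their own 12 markers were all detected in each library and summed to 3476, 4845, 4933 and 11167 counts per 1000000 UMIs of the class (CPM, the level used throughout). In 15.6%, 23.2%, 24.4% and 10.3% of them the stroma list led the next list by only 1 marker. Nephron progenitor-like cells numbered 354, 369 and 311 in the kidneys in situ and 0 in the transplant. The kit reads the end of each transcript, so levels were not divided by gene length, and comparisons between genes carry the capture of each gene's own 3′ end.

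The promoters of some of the genes on which the results turn are shown first, since the levels below contrast genes that share a filament or a fibril but not a start site. Each window runs from 250 bases before to 50 bases after a start site of RefSeq on GRCm38.p6 and is printed 5′ to 3′ on the strand of the gene. Of the 38 genes, 30 had a window, and these had 33 windows in all. Col1a1 was among the 8 without one, and the windows of Col6a2 and Col6a3 are not printed. Capitals mark exact matches on either strand to 3 short motifs. The motif CCAAT is known as the CCAAT box. The motif TATAAA is a form of the TATA box. The motif GGGCGG is known as the GC box. A match on the opposite strand appears as the reverse complement of these letters. In the windows printed no matches overlapped. Col1a2 encodes the alpha 2 chain of type I collagen and lies at chr6:4505368-4505667 on the plus strand, with GC boxes 205 and 188 bases before the start and a CCAAT box 109 bases before it, and with a CCAAT box on the opposite strand whose match begins at the start itself.
Col1a2: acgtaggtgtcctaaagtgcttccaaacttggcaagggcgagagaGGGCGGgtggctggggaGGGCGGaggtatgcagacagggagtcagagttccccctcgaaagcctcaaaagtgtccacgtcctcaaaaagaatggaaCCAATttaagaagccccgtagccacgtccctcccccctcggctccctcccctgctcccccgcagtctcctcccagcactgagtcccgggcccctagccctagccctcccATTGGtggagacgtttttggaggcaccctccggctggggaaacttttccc
Col3a1, the chain of type III collagen, lies at chr1:45311288-45311587 on the plus strand, and its match to TATAAA begins 117 bases before the start.
Col3a1: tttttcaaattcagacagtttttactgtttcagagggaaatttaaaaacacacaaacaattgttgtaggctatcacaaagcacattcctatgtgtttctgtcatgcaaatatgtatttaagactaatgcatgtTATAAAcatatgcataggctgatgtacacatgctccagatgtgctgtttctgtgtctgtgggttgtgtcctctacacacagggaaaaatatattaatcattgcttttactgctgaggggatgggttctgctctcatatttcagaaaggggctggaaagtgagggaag
Col6a1 encodes the alpha 1 chain of the type VI filament, at chr10:76725995-76726294 on the minus strand.
Col6a1: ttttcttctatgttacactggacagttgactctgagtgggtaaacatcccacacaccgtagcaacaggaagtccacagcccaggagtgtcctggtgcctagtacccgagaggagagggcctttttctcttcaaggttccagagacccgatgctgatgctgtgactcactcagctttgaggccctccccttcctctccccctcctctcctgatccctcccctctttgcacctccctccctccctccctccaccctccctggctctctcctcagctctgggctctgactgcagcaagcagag
Col15a1, a multiplexin, lies at chr4:47207762-47208061 on the plus strand.
Col15a1: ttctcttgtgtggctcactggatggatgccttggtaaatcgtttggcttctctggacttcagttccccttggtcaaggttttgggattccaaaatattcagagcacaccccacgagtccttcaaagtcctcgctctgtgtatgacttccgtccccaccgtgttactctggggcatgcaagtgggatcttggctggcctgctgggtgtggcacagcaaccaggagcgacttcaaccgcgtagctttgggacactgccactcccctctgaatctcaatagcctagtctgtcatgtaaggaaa
Col18a1, the other multiplexin, has a start at chr10:77166481-77166780 and an internal start at chr10:77113656-77113955, both on the minus strand, which are known to give isoforms of different length.
Col18a1 upstream start: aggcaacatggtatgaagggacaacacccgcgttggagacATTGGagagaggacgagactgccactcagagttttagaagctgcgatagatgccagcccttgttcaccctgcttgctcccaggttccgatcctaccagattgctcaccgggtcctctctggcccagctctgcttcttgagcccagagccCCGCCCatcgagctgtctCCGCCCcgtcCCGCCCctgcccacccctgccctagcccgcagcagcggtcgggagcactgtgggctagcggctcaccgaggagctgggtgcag
Col18a1 internal start: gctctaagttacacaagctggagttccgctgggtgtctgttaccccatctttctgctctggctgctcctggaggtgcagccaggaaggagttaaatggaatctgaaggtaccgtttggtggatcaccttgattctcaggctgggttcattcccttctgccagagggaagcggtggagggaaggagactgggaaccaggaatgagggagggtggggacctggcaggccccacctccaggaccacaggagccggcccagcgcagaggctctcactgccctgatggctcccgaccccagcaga
The windows of Col6a1 and Col15a1 and the internal window of Col18a1 held none of the 3 motifs, while the upstream window of Col18a1 held a CCAAT box and 3 GC boxes on the opposite strand. Over the 33 windows, 10 held CCAAT (30.3%, against 37.4% of 32851 mouse promoter windows of the same length), 5 held TATAAA (15.2% against 13.6%) and 19 held GGGCGG (57.6% against 35.7%). These matches describe the letters of the windows and nothing of what binds there. Several of the genes are neighbours. Col3a1 and Col5a2 lie 24614 bases apart on chromosome 1, on opposite strands, Col6a2 and Col6a1 lie 85161 bases apart on chromosome 10 with Col18a1 326009 bases further on, and Col6a6, Col6a5 and Col6a4 follow each other on chromosome 9 with gaps of 27917 and 28810 bases.

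Transcripts of the 38 genes made up 0.140%, 0.0885%, 0.0743% and 0.143% of all UMIs of the cells used. Col1a1, Col1a2 and Col3a1 alone gave 65.6%, 52.6%, 44.7% and 50.4% of them. Stroma-like cells held 67.5%, 54.4%, 45.6% and 55.7% of the UMIs of the 38 genes, which amounted to 3989, 5246, 4274 and 9315 CPM when summed. The transplant therefore stood at more than the level of any kidney in situ per UMI of stroma, with a share of stroma-like cells close to that at P0. Among classes with at least 50 cells, which leaves out the 44 mural-like cells of E15.5, the stroma-like class had the highest level of 21, 17, 17 and 25 genes in the 4 libraries. In those 44 cells several of these genes stood above the stroma-like level, such as Col5a2 (129 against 109 CPM) and Col8a1 (36.7 against 3.44). For 13 genes it led in every library: Col1a1, Col1a2, Col3a1, Col6a1, Col6a2, Col6a3, Col6a5, Col6a6, Col8a2, Col11a1, Col14a1, Col16a1 and Col24a1. No other class led a gene in all 4 libraries. At the other end, Col10a1 of hypertrophic cartilage had 1 UMI in all, and Col19a1, Col28a1, Col6a5, Col22a1, Col17a1 and Col20a1 had 11, 20, 62, 62, 136 and 162.

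**Figure D1:**
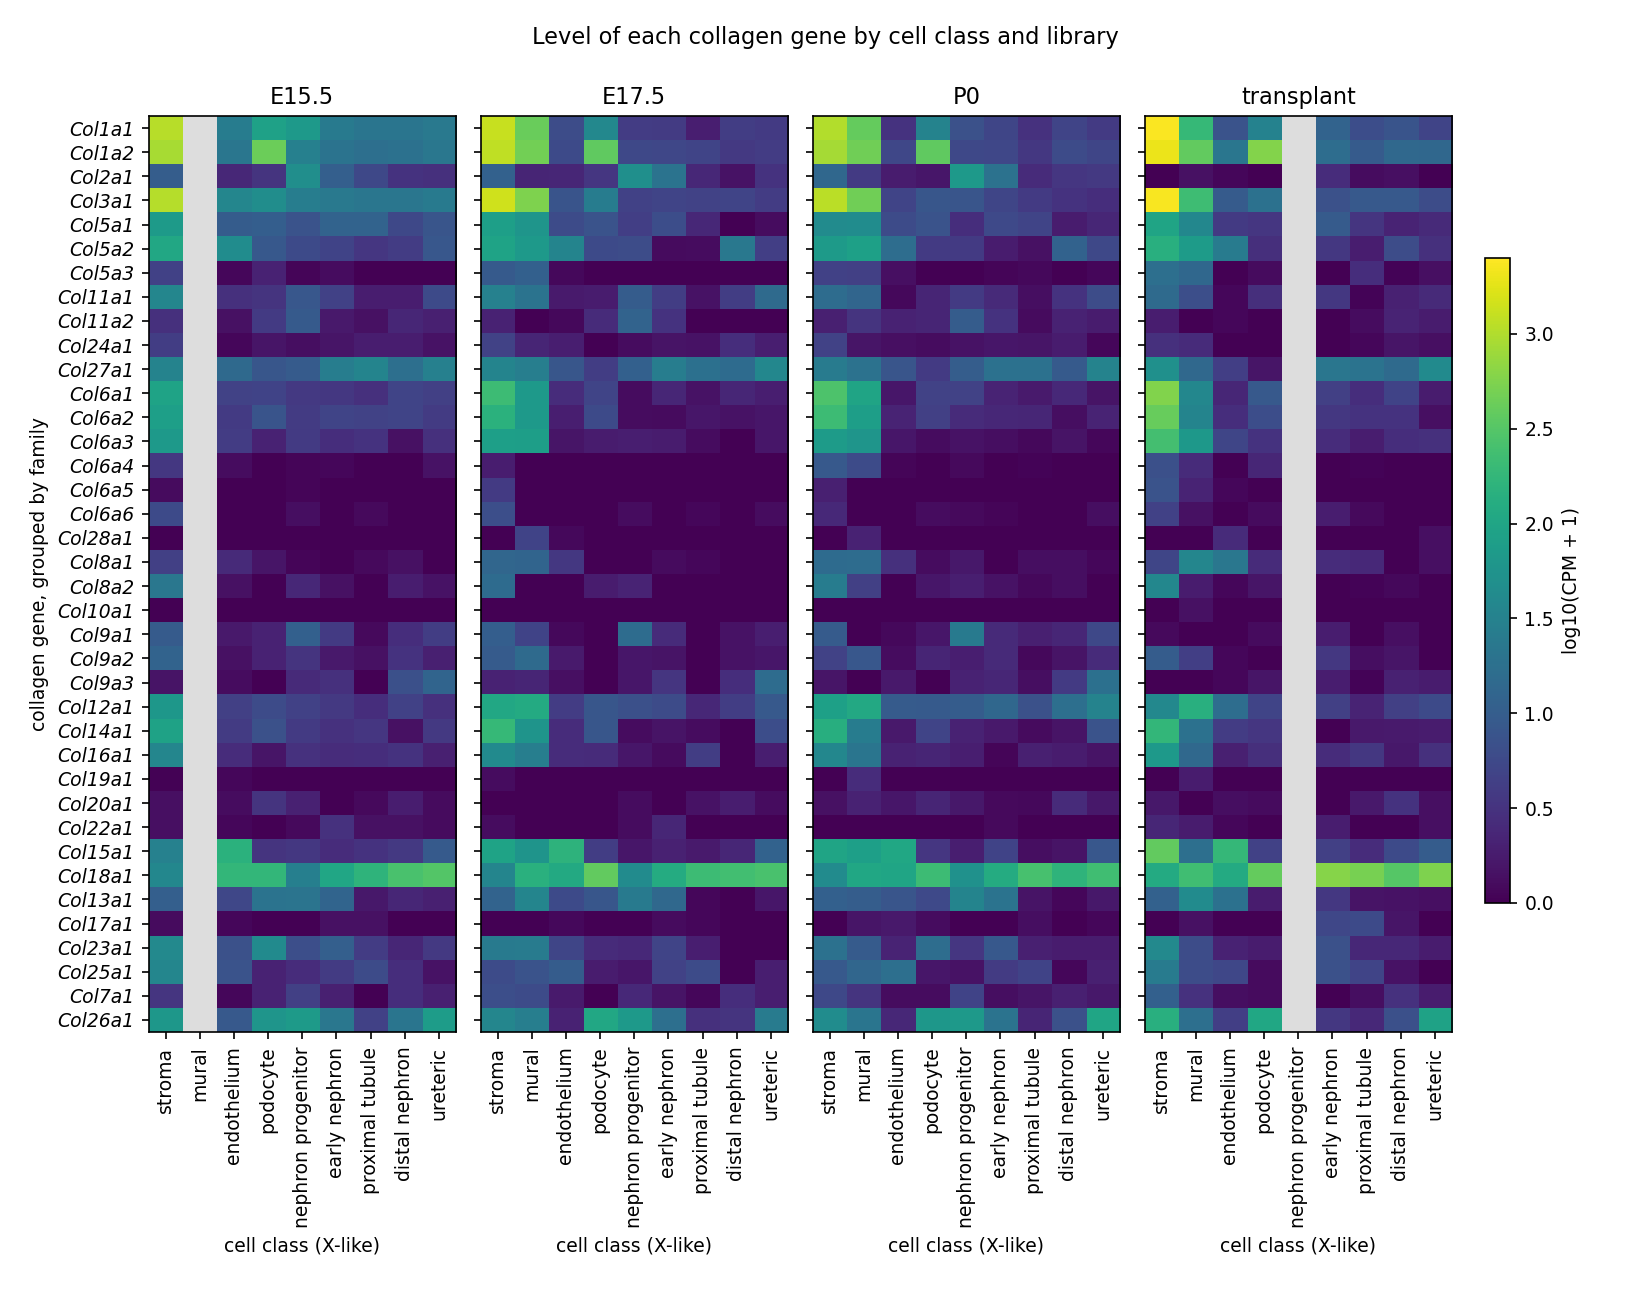
Level of each collagen gene (rows, grouped by family) in each cell class (columns) of each library (panels), as log10 of CPM plus 1; grey columns are classes with under 50 cells, and each panel is 1 library with no error bar. The type I and III chains are highest in the stroma-like columns, Col18a1 is spread over the epithelial columns, and Col2a1 is highest in nephron progenitor-like cells of the kidneys in situ.

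Col1a1 and Col1a2 encode the chains of type I collagen, the main fibril of connective tissue, and Col3a1 the chain of type III, which forms finer fibrils with it. On GRCm38 they lie at chr11:94936224-94953042, chr6:4504814-4541544 and chr1:45311538-45349706, all on the plus strand. In stroma-like cells Col1a1 stood at 1084, 1307, 1006 and 2411 CPM. Col1a2 stood at 910, 1185, 881 and 1993 CPM, and Col3a1 at 1034, 1445, 1109 and 2309 CPM. The 3 genes were thus highest in the transplant and within a narrow band in the 3 kidneys in situ. The ratio of Col1a1 to Col1a2 UMIs in stroma-like cells was 1.19, 1.10, 1.14 and 1.21, and that of Col3a1 to Col1a1 was 0.954, 1.11, 1.10 and 0.958. When each cell was thinned to 2000 UMIs, 68.3%, 67.8%, 63.4% and 91.1% of stroma-like cells had a Col1a1 UMI, against 1.88%, 0%, 0.686% and 1.21% of proximal tubule-like cells, which serve here as the level of free RNA (unthinned shares 94.5%, 81.0%, 79.2% and 94.99% against 37.5%, 0.949%, 3.16% and 4.55%). At E17.5 none of 632 proximal tubule-like cells had such a UMI, which allows a share of up to 0.582% by the exact binomial interval. The tenth of stroma-like cells richest in Col1a1 held 45.1%, 50.1%, 48.2% and 37.7% of its thinned UMIs. The mean was 2.42, 2.98, 2.27 and 4.99 thinned UMIs per cell. A higher mean can lower that share by itself, and the spread at an equal mean was not tested.

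Mural-like cells, the class of smooth muscle and pericytes, also held all 3 chains. Col1a1 stood there at 674, 425, 400 and 187 CPM, Col1a2 at 772, 478, 466 and 388, and Col3a1 at 825, 544, 454 and 223, where the E15.5 values rest on only 44 cells. All 3 were lowest in the transplant, whereas in stroma-like cells all 3 were highest there. Podocyte-like cells, the filtering cells of the glomerulus, differed in kind, because they held Col1a2 with little Col1a1. Col1a2 stood at 435, 372, 370 and 589 CPM in them, Col1a1 at 86.5, 37.7, 31.9 and 30.8, and Col3a1 at 45.7, 25.7, 7.05 and 17.6. The ratio of Col1a1 to Col1a2 UMIs was therefore 0.199 (95% counting interval 0.166 to 0.236), 0.101 (0.0734 to 0.137), 0.0861 (0.0698 to 0.105) and 0.0524 (0.0430 to 0.0633), below the ratio in stroma-like cells in every library. In mural-like cells the same ratio was 0.872, 0.889, 0.858 and 0.482. At 2000 UMIs per cell, 46.9%, 50%, 46.1% and 61.7% of podocyte-like cells had a Col1a2 UMI, against 3.75%, 0.791%, 0.412% and 1.31% of proximal tubule-like cells (unthinned, 84.4%, 68.9%, 68.3% and 82.7% against 37.5%, 3.80%, 4.25% and 7.98%). Median depths were 16899, 4382, 5452 and 5444 UMIs in podocyte-like cells and 25238, 9612, 14870 and 12371 in proximal tubule-like cells. Intervals here and below are exact 95% intervals and cover counting error only.

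**Figure D2:**
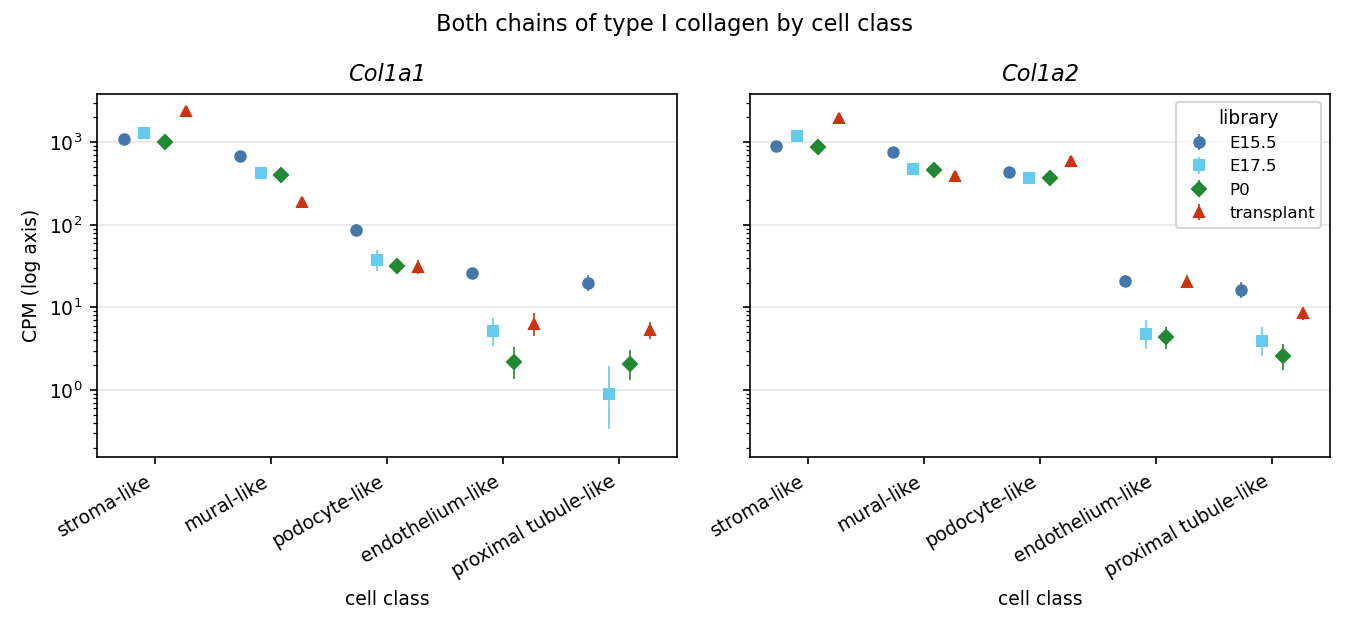
Levels of Col1a1 (left) and Col1a2 (right) in CPM (vertical axis, logarithmic) in 5 cell classes (horizontal axis) of the 4 libraries; each point is 1 library, bars are exact 95% intervals for counting error, and the mural-like point of E15.5 rests on 44 cells. Both chains are highest in stroma-like cells, and in podocyte-like cells Col1a2 lies at 370 CPM or more in every library while Col1a1 lies below 90 CPM.

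The minor fibril-forming chains were far less abundant. Col5a1 and Col5a2, the chains of type V collagen, which starts type I fibrils and sets their width, stood in stroma-like cells at 70.0, 81.9, 42.8 and 96.1 CPM and at 109, 92.6, 71.0 and 140.5 CPM. Both were lowest at P0 and highest in the transplant, and their ratio kept between 0.602 and 0.884. Col5a3 stood at 3.49, 8.16, 3.49 and 16.5 CPM. Col5a2 was also present in endothelium-like cells at 43.6, 33.4, 15.7 and 24.9 CPM. Col11a1, the cartilage counterpart of type V, stood in stroma-like cells at 35.8, 30.1, 15.1 and 14.05 CPM, lower in the later libraries. Col27a1 was spread over stroma-like cells (32.6, 32.9, 25.02 and 50.5 CPM) and ureteric-like cells (29.1, 36.0, 32.0 and 41.4 CPM). Col24a1 did not exceed 3.66 CPM in stroma-like cells. The cartilage chains Col2a1 and Col11a2 were highest in nephron progenitor-like cells, the pool that gives rise to nephrons. Col2a1, the chain of the main cartilage fibril, stood there at 46.8, 47.8 and 67.2 CPM, and at 8.97, 10.4, 12.7 and 0 CPM in stroma-like cells. Col11a2 stood at 8.31, 11.1 and 8.63 CPM in the progenitors. The transplant, which held 0 such cells by the gate, had 0.376 CPM of Col2a1 over all its cells, against 15.5, 11.9 and 14.98 in the kidneys in situ.

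Type VI collagen is a filament of Col6a1, Col6a2 and a longer chain, usually Col6a3. In stroma-like cells Col6a1 stood at 92.7, 216, 278 and 563 CPM, Col6a2 at 81.8, 147, 212 and 412, and Col6a3 at 66.9, 82.2, 71.7 and 238. Col6a1 and Col6a2 were lowest at E15.5 and highest in the transplant, with P0 above E17.5, and their ratio was 1.13, 1.47, 1.31 and 1.37. Col6a3 did not share that order: it was level in the 3 kidneys in situ and high in the transplant only. Its ratio to Col6a1 was 0.722 (0.673 to 0.774), 0.380 (0.331 to 0.436), 0.258 (0.233 to 0.285) and 0.423 (0.393 to 0.454). The filament's chains were thus counted in unequal proportion in the 4 libraries. Col6a1 was found in 16.5%, 34.9%, 35.2% and 63.1% of stroma-like cells thinned to 2000 UMIs (unthinned, 61.4%, 53.4%, 63.9% and 89.0%), against 0%, 0.158%, 0% and 0.404% of proximal tubule-like cells, where 0 of 160 and 0 of 729 cells allow shares of up to 2.28% and 0.505%. The longer chains that can stand in for Col6a3 stayed below 8 CPM in stroma-like cells: Col6a4 stood at 2.52, 0.844, 7.86 and 5.71 CPM, Col6a5 at 0.242, 2.81, 1.02 and 6.36, and Col6a6 at 4.85, 5.63, 1.45 and 3.51. These 3 genes lie side by side, yet each had its highest stroma-like level in another library, from few UMIs and with intervals that overlap between some libraries.

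Of the fibril-associated chains, Col14a1 and Col12a1, which decorate type I fibrils, were the most abundant in stroma-like cells of the kidneys in situ; in the transplant Col16a1 stood above Col12a1. Col14a1 stood at 88.7, 190.5, 134 and 179 CPM. Col12a1 stood at 61.3, 107, 85.1 and 37.3 CPM and was lowest in the transplant. In mural-like cells, by contrast, Col12a1 stood at 69.9, 120, 111 and 139 CPM, highest in the transplant. Col12a1 was also counted in epithelium: in ureteric-like cells, the class of the collecting duct, it stood at 1.94, 7.88, 31.8 and 4.73 CPM, and in distal nephron-like cells at 3.50, 3.11, 16.7 and 3.36 CPM, highest at P0 in both. Col16a1 stood in stroma-like cells at 35.8, 40.8, 36.8 and 69.1 CPM. The type IX chains, which coat cartilage fibrils, were low. Col9a1 was highest in nephron progenitor-like cells (10.1, 15.02 and 23.2 CPM), with 8.58, 9.29, 8.58 and 0.219 CPM in stroma-like cells. Col9a2 stood at 11.3, 8.44, 3.64 and 8.78 CPM in stroma-like cells. In the kidneys in situ Col9a3 was highest in ureteric-like cells; its level there was 11.6, 14.8, 16.8 and 0.789 CPM, and so the type IX chains did not share a leading class.

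The multiplexins shared the endothelium and differed elsewhere. In endothelium-like cells Col18a1 stood at 178, 115, 98.5 and 119 CPM, and the ratio of Col15a1 to Col18a1 UMIs was 0.832, 1.36, 1.06 and 1.53. Col15a1, whose chain bridges basement membrane and fibrils, was highest in endothelium-like cells of the kidneys in situ, at 148, 156 and 105 CPM, with 183 CPM in the transplant. In stroma-like cells it stood at 30.1, 94.0, 95.6 and 377 CPM, so that in the transplant the stroma-like level passed the endothelial level. It was found in 4.82%, 11.4%, 16.01% and 45.8% of stroma-like cells at 2000 UMIs, against 1.25%, 0.316%, 0% (which allows up to 0.505%) and 0.404% of proximal tubule-like cells (unthinned, 21.9%, 21.1%, 26.2% and 75.5% against 6.25%, 0.791%, 0.549% and 2.02%). Col18a1, the source of the fragment endostatin, was the most abundant of the 38 genes in every library in ureteric-like, distal nephron-like, proximal tubule-like and early nephron-like cells. Its level was 307, 263, 226 and 545 CPM in ureteric-like, 266, 236, 163 and 315 in distal nephron-like, 162, 212, 255 and 502 in proximal tubule-like, 102, 123, 121 and 602 in early nephron-like and 176, 377, 215 and 391 in podocyte-like cells. It was highest in the transplant in all of these epithelial classes. In stroma-like cells Col18a1 stood at 36.3, 34.6, 43.2 and 119 CPM, and the ratio of Col15a1 to Col18a1 there was 0.829, 2.72, 2.21 and 3.16.

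The remaining genes were scattered over classes. Col26a1, a secreted collagen, stood at 74.4, 25.1, 98.0 and 89.6 CPM in ureteric-like cells, at 57.8, 109, 62.5 and 105 in podocyte-like cells, at 69.2, 67.9 and 67.2 in nephron progenitor-like cells and at 62.0, 35.7, 43.8 and 136.5 in stroma-like cells. Among the transmembrane chains, Col13a1, found at cell and matrix junctions, stood at 19.1, 23.7 and 32.9 CPM in nephron progenitor-like cells and at 42.7 CPM in mural-like cells of the transplant. Col23a1 stood in podocyte-like cells at 40.8, 1.60, 15.6 and 0.811 CPM and in stroma-like cells at 39.3, 23.1, 17.6 and 38.6. In podocyte-like cells it was therefore high in both ICR libraries and near the floor of 3 UMIs in the other libraries, which are of C57BL/6 and C57BL/6N kidneys (4 samples in all, with age and preparation also differing). Col25a1 stood at 35.2, 5.06, 8.001 and 25.2 CPM in stroma-like cells. Col17a1, a hemidesmosome chain, stood in proximal tubule-like cells at 0.438, 0.151, 0.332 and 4.86 CPM, the last from 69 UMIs. Of the short-chain networks, Col8a2 stood at 21.3, 14.4, 25.6 and 36.2 CPM in stroma-like cells. Col8a1, a chain of vessel walls, stood at 3.44, 12.1, 14.4 and 4.17 CPM in stroma-like cells, at 36.7, 11.4, 15.2 and 35.9 in mural-like cells and at 1.54, 2.60, 1.97 and 21.05 in endothelium-like cells. Col7a1, the anchoring fibril chain, did not exceed 9.88 CPM in stroma-like cells.

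**Figure D3:**
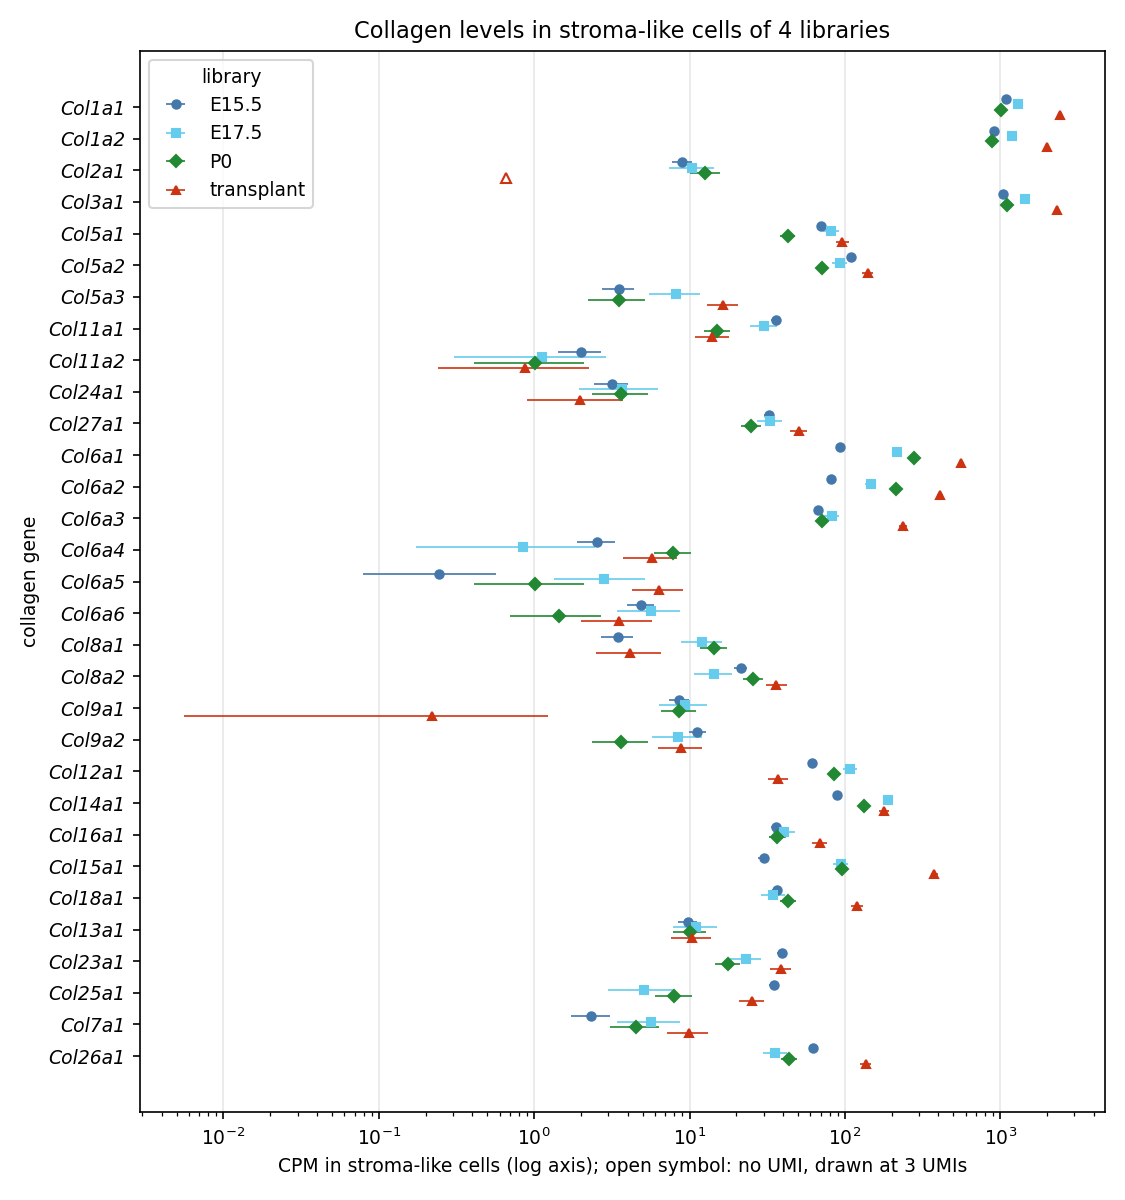
Level in stroma-like cells (horizontal axis, CPM, logarithmic) of collagen genes (vertical axis, grouped by family) in the 4 libraries; each point is 1 library, bars are exact 95% intervals for counting error, and an open symbol stands for 0 UMIs drawn at the floor of 3. Col6a1, Col6a2 and Col15a1 are lowest at E15.5 and highest in the transplant, while Col12a1 is lowest in the transplant.

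The kidneys of the same labelled strain, P0 and E15.5, were set side by side first. A gene was counted when the libraries together held at least 20 UMIs of it in the class, and was past the fold when its CPM differed at least 2-fold; in stroma-like cells 30 of the 38 genes were counted. At P0, 5 were past the fold on the higher side, where 8.26% of all 12588 genes counted were, and 5 were past it on the lower side, against 7.57%. The higher genes were Col6a1 (3.00-fold, 2.81 to 3.20), Col6a2 (2.59-fold, 2.41 to 2.78), Col6a4 (3.11-fold, 2.09 to 4.65), Col8a1 (4.18-fold, 3.05 to 5.76) and Col15a1 (3.17-fold, 2.84 to 3.55). The lower genes were Col6a6 (3.33-fold, 1.74 to 7.17), Col9a2 (3.09-fold, 2.04 to 4.88), Col11a1 (2.37-fold, 1.93 to 2.94), Col23a1 (2.23-fold, 1.84 to 2.72) and Col25a1 (4.39-fold, 3.34 to 5.89). The type VI chains thus lay on both sides, with Col6a1, Col6a2 and Col6a4 higher, Col6a6 lower and Col6a3 at a ratio of 1.07 (0.965 to 1.19). The main fibril chains were nearly level, with a P0 to E15.5 ratio of 0.928 (0.903 to 0.953) for Col1a1, 0.968 (0.941 to 0.997) for Col1a2 and 1.07 (1.05 to 1.10) for Col3a1. Col5a1 and Col5a2 were 1.64-fold and 1.54-fold lower at P0. The median log2 ratio of the counted genes was 0.04, against -0.06 over all genes counted. Levels at E17.5, in another strain, did not all follow those at P0. Col6a1 (2.33-fold), Col8a1 (3.51-fold), Col15a1 (3.12-fold) and Col6a2 stood above E15.5, and Col23a1 and Col25a1 stood below it, as at P0. Col9a2 and Col11a1 (30.1 CPM at E17.5, 35.8 at E15.5 and 15.1 at P0) stood nearer to E15.5 than to P0. Col6a4 (0.844 CPM at E17.5 against 2.52 at E15.5) and Col6a6 (5.63 against 4.85) went the other way, from few UMIs. Beside these values, all 12 genes of a list of dissociation stress had ratios above 1, 10 of them past the fold, and their summed level was 3812 CPM at E15.5 and 10405 at P0; its part in the result was not tested.

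The transplant was then compared with P0. In its stroma-like cells 17 of 30 counted genes were past the fold on the higher side, against 14.8% of the 11756 genes counted, and 4 were past it on the lower side, against 8.89%. The main fibril chains were among the higher genes: Col1a1 was 2.40-fold (2.33 to 2.47), Col1a2 2.26-fold (2.19 to 2.34) and Col3a1 2.08-fold (2.02 to 2.14) above P0. So were the fibril starters Col5a1 (2.25-fold, 1.93 to 2.61) and Col5a3 (4.71-fold, 2.94 to 7.81), and the filament chains Col6a3 (3.32-fold, 2.98 to 3.70), Col6a1 (2.02-fold) and Col6a5 (6.25-fold, 2.68 to 16.9). Both multiplexins were higher, Col15a1 by 3.95-fold (3.60 to 4.32) and Col18a1 by 2.76-fold (2.39 to 3.19). Col26a1 (3.12-fold), Col25a1 (3.15-fold), Col6a6 (2.41-fold), Col9a2 (2.41-fold), Col7a1 (2.19-fold), Col23a1 (2.19-fold) and Col27a1 (2.02-fold) completed the higher set, with Col5a2 (1.98-fold) and Col6a2 (1.94-fold) just outside it. The lower set was Col12a1 (2.28-fold, 1.92 to 2.72), Col8a1 (3.45-fold, 2.10 to 5.98), Col9a1 (39.1-fold from 1 UMI, 6.75 to 1.57e+03) and Col2a1, which was at least 19.2-fold lower with 0 UMIs against a floor of 3 for the class. Col2a1 and Col9a1 were both highest in nephron progenitor-like cells of the kidneys in situ, of which the gate found 0 in the transplant. With classes taken from clusters of cells in place of the gate, the Col2a1 ratio was 1.05, and with each cell thinned to 2000 UMIs the Col9a2 ratio was 0.753, so neither direction held in every setting. The median log2 ratio was 1.04, against 0.23 over all genes counted. The other classes with at least 50 cells in both libraries had medians from -0.49 in mural-like cells to 1.08 in proximal tubule-like cells. Over all genes counted in those 2 classes the medians were 0.23 and 0.20. With a strict gate, of at least 4 stroma markers and a lead of 2, only 7 genes were past the fold on the higher side. The share over all genes under that gate is not given here. Col1a1 then stood at 1.89-fold and Col15a1 at 3.29-fold. Of the 12 stress genes 2 were past the fold on the higher side and 4 on the lower side. Their summed level was 10405 CPM at P0 and 13029 in the transplant, and their part in the result was not tested.

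Stroma-like cells were also divided by 3 lists of markers within the class. Dcn and Lum of the first list, Foxd1 and Ntn1 of another, and Penk of the last are also on the list that gates the class. Cells marked by at least 2 of 6 genes of a list headed by Dcn and Lum, genes of fibroblasts, made up 11.3% (9.23 to 13.7) of stroma-like cells at P0 and 38.5% (35.0 to 42.2) in the transplant, with 15.9% and 16.4% at E15.5 and E17.5. Cells marked in the same way by a list headed by Foxd1, a gene of cortical stromal progenitors, made up 20.4%, 10.1%, 5.91% and 0.556% in the 4 libraries. Those marked by a list headed by Penk, a gene of medullary stroma, made up 19.9%, 19.5%, 22.04% and 29.9%. No list requires a UMI of the gene that heads it. The genes of the Dcn list were themselves higher in the transplant. Dcn stood at 403 CPM at P0 and 3204 in the transplant in all stroma-like cells and at 409 and 1591 in Penk-marked cells, and Lum at 61.7 and 676 in all stroma-like cells and at 33.3 and 245 in Penk-marked cells. More cells can pass the list when each holds more of these transcripts, so a larger share of such cells and a higher level per cell cannot be told apart, and the Dcn-marked cells of the 2 libraries need not be like cells. The Dcn-marked cells were the richest in the 38 genes, at 8683, 13850, 14148 and 12174 CPM when summed, against 5249, 6687, 5411 and 7411 in Penk-marked cells. In the cells that passed this list, the main fibril chains stood below P0 in the transplant: Col1a1 stood at 2616, 3942, 4240 and 3199 CPM, and its transplant to P0 ratio was 0.754 (0.720 to 0.791). The ratio was 0.798 (0.757 to 0.841) for Col1a2 and 0.788 (0.752 to 0.826) for Col3a1. Of 20 genes counted in these cells, 5 were past the fold on the higher side (14.9% of all genes) and Col12a1 alone on the lower side (2.91-fold, 2.09 to 4.05, against 5.57% of all genes). The 5 were Col26a1 (4.94-fold, 3.02 to 8.63), Col25a1 (4.03-fold, 1.27 to 20.6), Col18a1 (3.84-fold, 2.17 to 7.39), Col5a3 (2.67-fold, 1.21 to 6.98) and Col15a1 (2.66-fold, 2.09 to 3.43).

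In Penk-marked cells 23 genes were counted, of which 5 were past the fold on the higher side (10.7% of all genes) and 3 on the lower side (7.10%). Col18a1 (2.80-fold, 2.11 to 3.75), Col26a1 (2.61-fold, 1.98 to 3.48), Col13a1 (2.42-fold), Col25a1 (2.40-fold) and Col9a2 (2.05-fold) were higher. Col12a1 was 6.51-fold lower (4.14 to 10.7), Col14a1 3.21-fold lower (2.36 to 4.41) and Col6a4 2.57-fold lower (1.24 to 5.72). The main fibril chains lay between, with Col1a1 at 1.67-fold, Col1a2 at 1.49-fold and Col3a1 at 1.22-fold above P0. Of the 3 subsets, Penk-marked cells had the highest Col15a1 in every library, at 101, 344, 305 and 516 CPM. The stroma-like cells outside the Penk and Dcn lists, 541 at P0 and 227 in the transplant, had the largest ratios of the 3 subsets for Col1a1, Col3a1 and Col15a1: Col1a1 stood at 553 CPM at P0 and 1976 in the transplant (3.58-fold, 3.39 to 3.77), Col3a1 at 634 and 1742 (2.75-fold, 2.61 to 2.90) and Col15a1 at 32.9 and 310 (9.45-fold, 7.87 to 11.4). For Col18a1, Col25a1 and Col26a1 the largest ratio was that of Dcn-marked cells, against 3.32, 3.62 and 3.21 in the remaining cells, and Col12a1 was at a ratio of 0.675 there. Col15a1, Col18a1, Col25a1 and Col26a1 were higher and Col12a1 lower in the transplant in each of these 3 subsets, whereas the type I and III chains were higher in Penk-marked and remaining cells and lower in Dcn-marked cells, as these lists divide them. With the shares of the subsets in the transplant set to those at P0, the ratio over all stroma-like cells was 2.06 for Col1a1, 1.97 for Col1a2, 1.69 for Col3a1 and 3.69 for Col15a1.

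**Figure D4:**
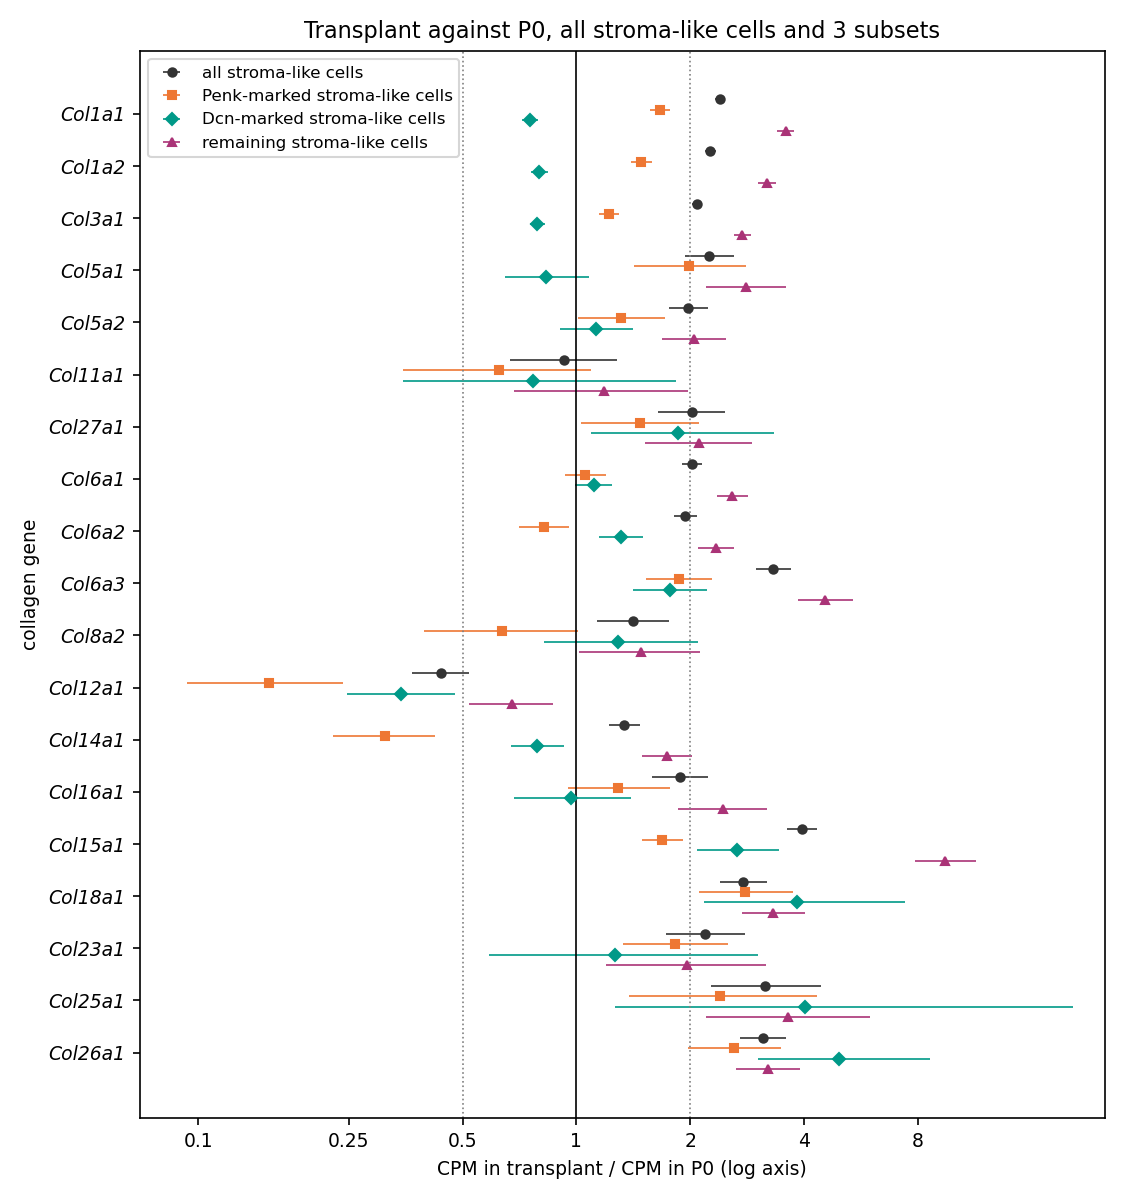
Level in the transplant divided by level at P0 (horizontal axis, logarithmic) for collagen genes (vertical axis) in all stroma-like cells and in 3 subsets of them; each point is a ratio of single libraries, bars are exact 95% intervals for counting error, the solid line marks equal levels and the dotted lines mark a ratio of 0.5 and of 2. Col1a1, Col1a2 and Col3a1 lie below 1 in Dcn-marked cells and above 1 in the other sets, while Col15a1, Col18a1, Col25a1 and Col26a1 lie above 1 and Col12a1 below 1 in all 4 sets.

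Against E17.5, the library closest to it in labelled strain, the transplant had 11 of 30 counted genes past the fold on the higher side in stroma-like cells, against 12.2% of all genes, and 5 on the lower side, against 9.14%. This comparison shares the transplant library with the one before and is no independent support for it. The higher genes were Col5a3 (2.02-fold), Col6a1 (2.61-fold), Col6a2 (2.81-fold), Col6a3 (2.90-fold), Col6a4 (6.76-fold), Col6a5 (2.26-fold), Col8a2 (2.52-fold), Col15a1 (4.01-fold), Col18a1 (3.45-fold), Col25a1 (4.98-fold) and Col26a1 (3.82-fold). Col1a1, Col1a2 and Col3a1 were 1.84-fold, 1.68-fold and 1.60-fold above E17.5 and so not past the fold. Col12a1 (2.88-fold), Col8a1 (2.90-fold), Col11a1 (2.14-fold), Col9a1 (42.3-fold) and Col2a1 (at least 15.8-fold) were lower. The median log2 ratio was 0.74, against 0.11 over all genes counted.

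In mural-like cells the transplant had 4 of 22 counted genes past the fold above P0, against 12.6% of all genes, and 8 below it, against 5.40%. Col13a1 stood at 11.5, 34.1, 8.98 and 42.7 CPM and was 4.76-fold above P0 (2.80 to 8.62). Col18a1 stood at 125, 141, 106 and 224 CPM (2.12-fold, 1.80 to 2.52), and Col8a1 (2.37-fold, 1.52 to 3.79) and Col5a3 (3.71-fold, 1.52 to 10.9) were also higher. The lower genes were Col1a1 (2.14-fold, 1.90 to 2.41), Col3a1 (2.04-fold, 1.82 to 2.27), Col6a1 (2.60-fold), Col6a2 (2.38-fold), Col9a2 (2.26-fold), Col11a1 (2.09-fold), Col25a1 (2.36-fold) and Col15a1. Col15a1 stood at 27.5, 56.8, 82.5 and 16.5 CPM and was 4.99-fold lower (3.51 to 7.24), but the direction turned with classes taken from clusters of cells in place of the gate: the ratio of Col15a1, mural-like, transplant against P0, was then 4.92. With those clusters only 2 genes were past the fold below P0, and the share over all genes with them is not given here. Beside these values, 6 of the 12 stress genes were past the fold on the lower side and 0 on the higher side (13649 CPM summed at P0 and 9254 in the transplant). The mural list, 12 of 12 detected, summed to 10607 and 25720 CPM, and the podocyte list, also 12 of 12, to 1597 and 718. The part of these genes in the result was not tested. In 45.5%, 31.6%, 32.2% and 24.4% of mural-like cells the mural list led by only 1 marker.

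Endothelium-like cells of P0 had 2 of 19 counted genes past the fold above E15.5, against 12.4% of all genes, and 10 below it, against 10.0%. Beside these values, all 12 stress genes were past the fold on the higher side, with a summed level of 1314 CPM at E15.5 and 11887 at P0; their part in the result was not tested. The higher genes were Col12a1 (2.55-fold, 1.61 to 4.19, but 0.769 with cells thinned to 2000 UMIs) and the transmembrane chain Col25a1 (6.44 and 16.6 CPM, 2.57-fold, 1.84 to 3.64). Among the lower genes were Col1a1 (26.1 and 2.17 CPM, 12.0-fold), Col3a1 (8.92-fold), Col1a2 (4.81-fold), Col26a1 (5.69-fold), Col23a1 (5.10-fold), Col6a1 (6.16-fold), Col6a2 (2.37-fold), Col6a3 (5.21-fold) and Col14a1 (4.27-fold). In proximal tubule-like cells, a class that should lack type I and III chains, Col1a1 stood at 19.9 CPM at E15.5 and 2.07 at P0. Col3a1 stood there at 20.6 and 2.74 CPM. The endothelial level of Col1a1 was above that of proximal tubule-like cells at E15.5 and close to it at P0. Col1a2 was also found in proximal tubule-like cells, most often at E15.5. How much of the endothelial level of Col1a1, Col1a2 and Col3a1 was background was not tested in any library. Col5a2, at 43.6 and 15.7 CPM, was above the 2.41 and 0.415 CPM of proximal tubule-like cells and was 2.78-fold lower at P0 (2.29 to 3.39). For comparison, proximal tubule-like cells at P0 had 1 of 13 counted genes past the fold above E15.5 (7.44% of all genes). There 8 were below it (8.09%). In the transplant those cells had 9 of 18 past the fold above P0 (11.6%) and 2 below it (6.23%). The part of free RNA in the endothelial counts was not tested. Endothelium-like cells of the transplant had 8 of 16 counted genes past the fold above P0, against 14.6% of all genes, and 2 below it, against 6.82%. Col8a1 was 10.7-fold higher (6.64 to 18.1), Col13a1 stood at 4.34, 4.83, 6.80 and 17.5 CPM (2.57-fold, 1.88 to 3.53) and Col1a2 stood at 20.9, 4.83, 4.34 and 20.6 CPM (4.74-fold, 3.34 to 6.84). Col6a3 (7.12-fold), Col14a1 (4.46-fold), Col1a1 (2.91-fold), Col26a1 (2.35-fold) and Col3a1 (2.14-fold) were the others, of which Col1a1 and Col3a1 stood at 6.31 and 8.42 CPM, near the 5.29 and 7.89 CPM of proximal tubule-like cells; with the proximal tubule level subtracted, the Col3a1 ratio was 0.435. Col25a1 was 3.79-fold (2.51 to 5.92) and Col27a1 2.13-fold (1.28 to 3.70) lower. The 12 mural markers, all detected, summed to 83.5 CPM at P0 and 309.4 in the transplant in these endothelium-like cells, with Acta2 at 13.5 and 87.8 CPM and Rgs5 at 2.46 and 33.7, and 7 of the 12 stress genes were past the fold on the lower side and 0 on the higher side; their part in the result was not tested.

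The machinery that makes and remodels collagen was read in stroma-like cells from lists chosen by function. Over all genes counted, 14.8% were past the fold on the higher side and 8.89% on the lower side between the transplant and P0, and a count near these shares is not a result about a list. Between the transplant and P0, all 4 counted genes of propeptide cleavage, which trims procollagen before it assembles, were past the fold on the higher side: Pcolce, the enhancer of that cleavage, stood at 201 CPM at P0 and 575 in the transplant (2.86-fold, 2.68 to 3.06), Pcolce2 was 2.72-fold, Adamts2 2.38-fold and Bmp1 2.35-fold higher. Of crosslinking and fibril assembly genes 5 of 11 were higher and 0 lower, with Loxl1 at 71.3 and 230 CPM (3.22-fold, 2.89 to 3.60) and Fmod at 2.98-fold, while Lox stood at 92.4 and 71.8 CPM and Loxl2 at 80.6 and 68.3. Of folding and export genes 4 of 13 were higher and 0 lower, led by Creb3l1, a transcription factor of collagen secretion (25.3 and 112 CPM, 4.43-fold, 3.72 to 5.29), and by Tmem38b (2.87-fold), with Creb3l2 and Hspa5 at ratios of 0.686 and 0.804. Collagen degradation had 4 of 8 higher and 0 lower, led by Ctsk (13.5 and 76.2 CPM, 5.63-fold, 4.47 to 7.16) and Mmp16 (4.53-fold), with the inhibitors Timp3 and Timp1 at ratios of 0.811 and 1.63. Of the hydroxylases 1 of 13 was higher and 3 were lower: P4ha1, a prolyl 4-hydroxylase chain, stood at 150 and 60.1 CPM (2.49-fold lower, 2.18 to 2.86) and P4ha3 was 9.68-fold lower (3.96 to 30.7), while P3h1 was 2.07-fold and P3h2 1.74-fold higher. Of the collagen receptors 1 of 7 was higher, Mrc2 (2.69-fold), with Ddr2 at 1.51 and the integrin chains Itga1 and Itgb1 at 0.886 and 0.992. The medians of the log2 ratios were 1.34, 0.92, 0.79, 1.29, 0.16 and 0.06 in this order of lists, against 0.23 over all genes counted. Between P0 and E15.5 the same lists had 1 of 6, 3 of 12, 1 of 13, 3 of 8, 4 of 13 and 1 of 8 genes higher and 0, 1, 0, 0, 0 and 0 lower, where 8.26% of all genes were higher and 7.57% lower.

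Markers of other cell types were counted in stroma-like cells beside these results. The 12 mural markers, all detected, summed to 600, 1599, 1767 and 2860 CPM in the 4 libraries, with Acta2 at 266, 926, 1030 and 1892, in the same order as Col6a1 and Col15a1. The podocyte list, 12 of 12 detected, summed to 1993, 1839, 1267 and 3315 CPM, nearly all of it Cdkn1c (1916, 1708, 1081 and 3091 CPM), while Nphs1 did not exceed 5.38 CPM. The part of these genes in the results was not tested. Of the adipocyte list 7, 6, 8 and 7 of 12 genes were detected at 43.7, 29.3, 35.8 and 45.4 CPM. Adipoq, Cidec and Lep were at 0 in all 4 libraries, while Car3 stood at 21.05, 3.66, 1.31 and 12.7 CPM, and in Penk-marked cells at 2.17 CPM at P0 and 25.1 in the transplant. The cartilage list summed to 9.55, 7.88, 11.6 and 18.4 CPM, with 8, 5, 5 and 8 of 11 genes detected, Acan at no more than 1 UMI and Ucma at 0. The mesothelial list summed to 137, 257, 247 and 208 CPM, with 8, 6, 7 and 4 of 12 detected and Lrrn4, Muc16 and Rspo4 at 0 throughout. Macrophage genes summed to 12.4, 7.03, 7.42 and 56.6 CPM, with 12, 8, 8 and 12 of 12 detected. Counts from pooled cells of a class do not tell apart fewer expressing cells and less RNA per cell.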

How the data were processed

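Single-cell RNA of 4 mouse kidney preparations, 1 library each, was measured with a 10x 3′ kit. The deposited values are raw UMI counts per gene and cell, made with Cell Ranger 3.1.0 on GRCm38, per the submitters' processing notes; the file headers name 3.0.2 in both ICR libraries and 3.1.0 in the others. A joined table was not used here. Cells with under 500 genes or over 20% mitochondrial UMIs were removed, then the cells with the highest doublet scores, at 0.8% per 1000 cells (102, 167, 524 and 350 cells). Cells were thinned to 2000 UMIs and gated on 18 lists of 12 marker genes. A cell took a class with at least 3 of its markers and more than of any other class, or a stroma subset with at least 2 of 6. UMIs were then summed over all UMIs of the gated cells. A ratio of CPM carries an exact conditional binomial interval; log2 ratios used 0.5 added counts. The scripts were tested on simulated data. With 1 library a group, no p-value or replicate error exists, the intervals cover counting error only, and nothing was tested between conditions. Depth sets the counting error and which cells enter a class, since cells under 2000 UMIs were left out. As an alternative, 42 Leiden clusters were made without the collagens (2000 variable genes, 40 components, 15 neighbours, resolution 1.5). Genes were named by rule: in a class with at least 50 cells in each library compared, the 4 most abundant collagens and those past the fold with at least 50 UMIs, and from each pathway list the 2 highest and 2 lowest ratios with at least 50 UMIs. Collagens named beyond it, and the full sets past the fold, were chosen after their values were seen. The genes and lists were chosen with earlier results of these data known. Software was Python 3.11.15, scanpy 1.11.5, numpy 2.4.6, scipy 1.17.1, pandas 2.3.3, scikit-learn 1.9.0, python-igraph 0.11.9 and matplotlib 3.10.9. Promoter sequences came from RefSeq and coordinates from GENCODE on GRCm38.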

Additional observations from a re-analysis of the deposited data

How the results depend on the processing

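No paired analysis was possible because each group is 1 library, and for the same reason no replicate could be left out. A count was held unchanged within 1.5 times its value and a median log2 ratio within 0.1; the cause of each shift below was not tested, except that thinning to 2000 UMIs and a minimum of 50 UMIs count fewer genes by construction. The share of all genes past the fold also changes with the fold and can change with each other setting. It is not given for the settings below, so these counts do not compare the collagens with all genes. Requiring 1000 genes per cell or at most 10% mitochondrial UMIs moved no count or median past these limits. For P0 against E15.5 in stroma-like cells, 8 genes were lower at a fold of 1.5, and the median was 0.16 with clusters and 0.14 with subset shares equalised, a setting chosen after seeing the data. For the transplant against P0, the 17 higher genes were 7 with the strict gate and 10 with clusters, with thinning, with the median ratio over all genes set to 1, and with equal subset shares. The 4 lower genes were 2 with clusters and 2 with thinning, and the median of 1.04 was 0.76 with the strict gate, 0.78 with clusters, 0.86 as a mean over cells, 0.81 with the median scaling and 0.84 with equal shares. Against E17.5, 19 genes were higher at a fold of 1.5, 3 were lower with clusters, with thinning and with 50 UMIs, and the median was 0.47 with the strict gate, 0.55 with clusters, 0.63 as a mean over cells, 0.64 with the median scaling and 0.56 with equal shares. In endothelium-like cells at P0 against E15.5, 0 genes were higher with thinning and 1 as a mean over cells, and 4 were lower with thinning and 6 with 50 UMIs. In the transplant against P0, 4 endothelial genes were higher with the strict gate and with clusters and 5 with thinning and with 50 UMIs, and 1 was lower without doublet removal and with thinning. In mural-like cells 2 were higher with the strict gate, and 2 were lower with clusters, 4 with thinning, 5 as a mean over cells and 5 with 50 UMIs. In Penk-marked cells 3 were higher with 50 UMIs and 10 at a fold of 1.5, 5 were lower at a fold of 1.5, and the median was 0.43 as a mean over cells, 0.40 with the median scaling and 0.39 with the proximal tubule level subtracted. In Dcn-marked cells the median was 0.33 as a mean over cells and 0.02 with the median scaling. Of 100 ratios of named genes and 1037 recomputations, 5 turned the direction of a gene past the fold. With clusters, the ratio of Col2a1, stroma-like, transplant against P0, was 1.05 and the ratio of Col15a1, mural-like, transplant against P0, was 4.92. With thinning, the ratio of Col9a2, stroma-like, transplant against P0, was 0.753 and the ratio of Col12a1, endothelium-like, P0 against E15.5, was 0.769. With the proximal tubule level subtracted, the ratio of Col3a1, endothelium-like, transplant against P0, was 0.435. Another 204 moved beyond their counting interval, and 828 did not. Depth limits the genes with few UMIs: below 20 UMIs over both libraries no ratio was read.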
